A study of Drosophila melanogaster with 6 samples.

Results

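The fly genome annotation names a class of noncoding genes by position: each lies on the strand opposite another gene, and its symbol begins with "asRNA:". Members of the set described here were chosen by that symbol and by a sum of at least 10 expected counts over the 6 libraries, and 261 of the 502 antisense RNA genes among the 16451 genes listed in the files met both conditions. The sum was taken over all libraries without regard to group, so it chose for abundance and not for a difference, although a gene high in either group reaches it more easily. At the edge of the rule, CR45818, CR46256 and CR44224 were just inside with a sum of 10, and CR46479, CR44703 and CR32224 were just outside with a sum of 9.

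An antisense RNA is transcribed across or into a gene in the direction opposite to that gene's own RNA. Where both strands are transcribed, the 2 RNAs can pair into double-stranded RNA, which in flies is cut by the Dicer-2 nuclease and loaded into Argonaute proteins as endogenous small interfering RNA, while the nuclear exosome degrades many other unstable noncoding transcripts. Antisense RNA can begin at a promoter of its own, and it can also come from transcription that runs past the end of a gene upstream on the same strand, a form of readthrough known from stressed cells of mammals. The function of most annotated fly antisense RNA genes is not known.

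The libraries came from wild-type S2 cells, a hemocyte-like line made from Drosophila melanogaster embryos. In 3 libraries the cells had received hydrogen peroxide (H2O2) at 10 mM for 30 min at 25 °C, and in 3 control libraries medium alone. Cells of both groups were grown with 10% serum and antibiotics, and all are 1 line, so no other cell type was compared. Libraries were made from poly(A) RNA with a stranded kit, which leaves out antisense RNA without a poly(A) tail. The labels do not say whether replicates were separate cultures, and the spread behind each p-value may therefore be technical.

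Totals were 35404927, 42043808 and 38059138 expected counts in H2O2 libraries 1 to 3, against 36947768, 39253171 and 36806499 in control libraries 1 to 3. Of 12 hemocyte markers, all 12 were detected, with a summed level between 7509 and 9073 CPM (counts scaled by TMM to a fixed library size, the unit of levels below unless TPM is named) in H2O2 libraries, against 9903 to 12286 CPM in control libraries. Among them edgeR called gcm, a transcription factor gene (0.598 CPM in H2O2 libraries, against 0.0445 CPM in control libraries), and with the replicate number as a block it also called 4 lower (Hml, Col4a1, vkg and eater), of which 0 were called with the block and a length trend removed together. Neuron markers summed to between 40.4 and 53.3 CPM in H2O2 libraries, against 49.9 to 62.9 CPM in control libraries. Muscle markers summed to at most 4.49 and 4.84 CPM, testis markers to at most 12.4 and 17.7 CPM, fat body markers to at most 47.0 and 46.3 CPM (mostly from ppl) and germline markers to at most 392 and 362 CPM, where the first value of each pair is from H2O2 libraries and the second from control libraries. The testis gene comr was at 0 in every library. Without the block edgeR called no marker of these 5 lists, with it elav (neuron), bol and topi (both testis) were lower, and with the length trend also removed brp (neuron) and topi were lower. The part of these markers in the results below was not tested.

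Antisense RNA genes were expressed at low levels in these cells. The median member had a mean of 0.304 CPM over the 6 libraries, and 194 of the 261 stayed under 1 CPM, while the median of all genes with a sum of at least 10 was 21.2 CPM. Among genes that passed the low-count filter and were tested, the median was 0.842 CPM for members and 33.1 CPM for all genes. Only 18 members reached 5 CPM and 7 reached 10 CPM. On the per-length scale of the deposited TPM values, the median level was 0.487 for all members and 21.3 for genes tested. Members were also short: their median exonic length was 1062 nt, against 2079.5 nt for genes tested, and 123 of them had a single exon. They lay on chromosome arms 3R (65 members), 2R (57), 3L (51), 2L (40), X (40) and 4 (8). The other 241 antisense RNA genes had sums under 10, and 92 of these were at 0 in every library.

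Nearly all members overlapped a gene on the other strand, so the strand of the reads matters. An opposite-strand gene was annotated for 260 of 261 members, and for 259 the exons themselves overlapped, over a median of 67.0% of the member's exonic length. The kit preserves strand, while the strand setting used for counting was not given in the sources used here. RSEM gives each count a posterior SD, which is above 0 where reads could belong to more than 1 gene. It was 0 in every library for 249 of the 259 overlapping members, including all 16 whose exons lay wholly within exons of the partner, so no reads were divided between these members and another gene. The 10 members with a value above 0 reached at most 13.1 counts (CR44872), and CR45213 and CR46194, described below, had at most 1.52 and 6.83 counts.

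The opposite-strand gene with the largest exon overlap is called the partner here, and the 261 members had 255 different partners. The level of a member per length was a median of 2.4% of its partner's TPM. It was under 1% of the partner for 98 members and under 10% for 166. It exceeded the partner for 41 members, 7 of which had a partner listed at 0. A small share of reads carried over to the wrong strand would fall in the range under 1%, and its part in those levels was not tested.

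After H2O2, 9 antisense RNA genes rose. By the quasi-likelihood test of edgeR, adjusted by Benjamini-Hochberg over all 8955 genes tested, 9 of the 145 members tested were called higher at an adjusted p under 0.05, which is 6.21% of them, where 2.57% of all genes tested were called higher and 0.570% lower. Of the members, 0 were called lower by edgeR, and 4 were lower at an unadjusted p under 0.05. DESeq2 called 10 members higher and 2 lower (CR46194 and CR45479, described below), where 4.02% and 3.86% of all genes tested were. On log2(TPM + 0.1) limma called 9 members higher (2.52% of all genes), and on log2(TPM + 1) 7 higher and 1 lower (1.90% and 0.625% of all genes). The 9 called higher were CR45213, CR45600, CR44370, CR45053, CR45835, CR46128, CR43465, CR45190 and CR46066. In each the H2O2 and control libraries did not overlap, which held on the higher side for 9.98% of all genes tested, and so each was higher in all 3 same-numbered pairs. This adds no support to the calls. The genes were chosen by their p, and 8 of the 9 passed the low-count filter in all 3 H2O2 libraries and not in all 3 control libraries. Their median log2 fold change (H2O2 over control) was 2.55. In bulk RNA, a change in how many cells express a gene and a change in RNA per cell cannot be told apart.

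**Figure D1:**
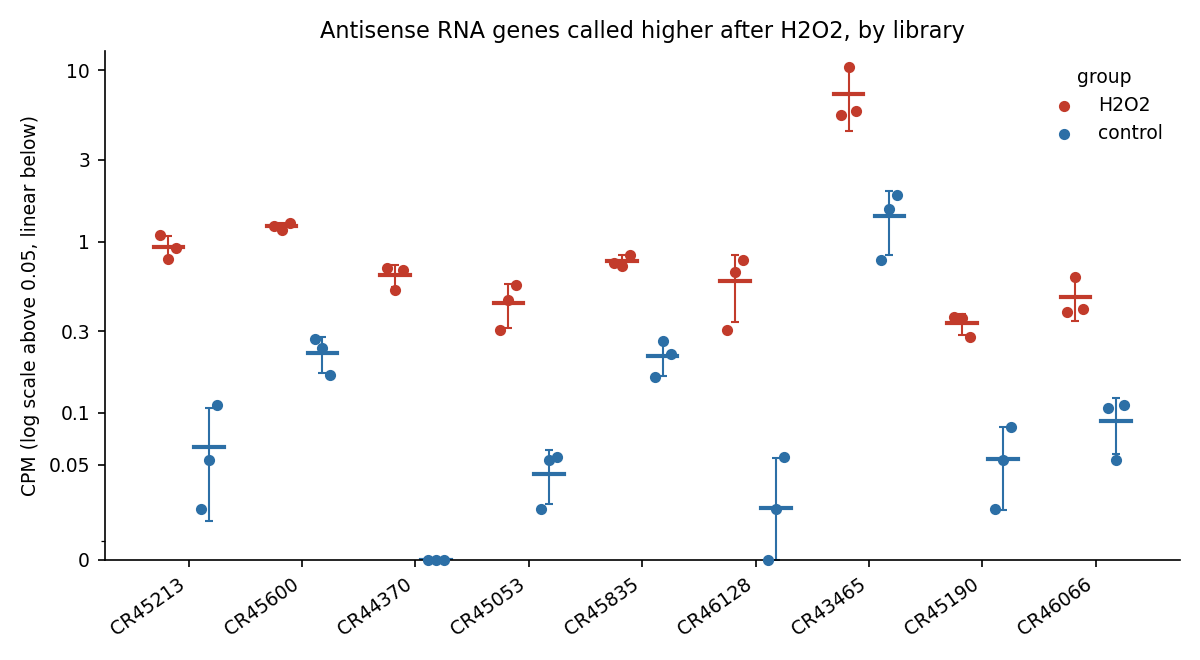
Level of the 9 antisense RNA genes called higher, in CPM by library (points), with the group mean (bar) and SD (whisker, n = 3), H2O2 to the left of control, on an axis that is logarithmic above 0.05 CPM and linear below. In every gene all 3 H2O2 points lie above all 3 control points, and CR43465 is the only one with a mean above 1 CPM in control libraries.

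The calls depended on single libraries. All 9 were called in each count-based fit of the 6 libraries (another size factor, DESeq2, 2 other filters, posterior mean counts, the length trend and the replicate block). The shares of all genes called higher in these were 2.57%, 4.02%, 2.60% (at least 10 counts in 3 libraries), 2.62% (no filter, genes with a sum of at least 10), 2.58%, 2.36% and 8.99%. With 1 library left out they were called less often: 6 members without H2O2 replicate 1 (1.47% of all genes), 3 without H2O2 replicate 3 (1.2%), 3 without control replicate 1 (0.840%), and 0 without H2O2 replicate 2, control replicate 2 or control replicate 3. In the last 3 fits edgeR called 0 genes of any kind, 19, 24 and 23 members had an unadjusted p under 0.05, and the smallest adjusted p among members was 0.0558, 0.0724 and 0.0744. The median log2 fold change of the 9 stayed between 2.49 and 2.95 in these fits, which reuse most of the libraries that chose them.

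CR44370 (FBgn0265508, chromosome 2R, 15226938 to 15232665, plus strand), a gene of 4 exons, lies inside Fs, which encodes follistatin, a secreted protein that binds activin-type ligands. It had 25, 22 and 27 counts in H2O2 libraries 1 to 3, against 0, 0 and 0 in control libraries. Set against 3 counts, the limit that a sum of 0 over the control libraries allows, it was 24.1-fold higher after H2O2, and at least 19.1-fold higher by the exact 95% limit of the ratio, which also covers the counting error of its 74 counts in H2O2 libraries (adjusted p = 0.0139). The fitted log2 fold change of 7.60 depends on the prior count and is no bound. Fs itself had 0.649 ± 0.183 CPM in H2O2 libraries and 0.681 ± 0.148 CPM in control libraries (SD, n = 3 each), and its log2 fold change of -0.07 was not called.

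CR45213 (FBgn0266740, chromosome 3R, 16992778 to 16994041, minus strand) is a single exon over the 5′ end of CG31274, with 787 nt of coding sequence in the overlap. It had 38.6, 33.4 and 36.0 counts in H2O2 libraries, against 1, 2 and 4 in control libraries. That is 0.929 ± 0.150 CPM in H2O2 libraries and 0.0634 ± 0.0429 CPM in control libraries (SD, n = 3 each; log2 fold change 3.81, SE 0.45, adjusted p = 0.0134). CG31274 had 2.23 ± 0.779 CPM in H2O2 libraries and 4.34 ± 3.48 CPM in control libraries and was not called (log2 fold change -0.96, adjusted p = 0.573). Upstream on the strand of CR45213, 0.501 kb away, ends EMC2A, which encodes a subunit of the endoplasmic reticulum membrane protein complex. EMC2A was not called, with 75.3 ± 6.33 CPM in H2O2 libraries and 73.7 ± 15.7 CPM in control libraries.

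CR45600 (FBgn0267160, chromosome 3R, 15136985 to 15140121, minus strand), with 3 exons, spans CG3984. Its counts were 44, 49 and 51 in H2O2 libraries, against 10, 9 and 6 in control libraries. It rose to 1.23 ± 0.0616 CPM in H2O2 libraries, against 0.224 ± 0.0527 CPM in control libraries (log2 fold change 2.44, SE 0.29, adjusted p = 0.0134). CG3984 had a mean of 14.5 CPM in H2O2 libraries and 20.6 CPM in control libraries and was not called (log2 fold change -0.50, adjusted p = 0.0818; 0.00102 with the replicate block). The gene for glycogen synthase, Glys, ends 1.72 kb upstream on the same strand and was not called (log2 fold change 0.12).

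CR43465 (FBgn0263442, chromosome 2L, 5969859 to 5971025, minus strand) was the most abundant of the 9. It had 197, 439 and 227 counts in H2O2 libraries, against 29, 59 and 68 in control libraries. Its level was 7.24 ± 2.81 CPM in H2O2 libraries and 1.41 ± 0.566 CPM in control libraries (SD, n = 3 each; log2 fold change 2.36, SE 0.41, adjusted p = 0.0334). The single exon spans all of Ucp4B, a mitochondrial uncoupling protein gene, which was listed at 0 in all 6 libraries.

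The genes that follow CR43465 on its own strand were called with it. CG13992, 2.11 kb further on, had 7.83 ± 2.86 CPM in H2O2 libraries and 0.866 ± 0.395 CPM in control libraries (log2 fold change 3.17, adjusted p = 0.0161). The next one, psd (palisade), a vitelline membrane gene known from the ovary, had 2.55 ± 0.894 CPM in H2O2 libraries and 0.217 ± 0.0590 CPM in control libraries (log2 fold change 3.54, adjusted p = 0.0134). The gene before them, chic, encodes the actin-binding protein profilin and ends 1.09 kb upstream of CR43465. It was not called, with 1021 ± 30.2 CPM in H2O2 libraries and 959 ± 29.8 CPM in control libraries.

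CR46128 (FBgn0267803, chromosome 3R, 7537842 to 7541279, plus strand) lies among the alpha-esterase genes and covers the 3′ end of alpha-Est3. Its counts were 11, 28 and 31 in H2O2 libraries, against 0, 1 and 2 in control libraries. The ratio of the summed counts, 70 to 3 and scaled to the library totals, was 22.8 (exact 95% interval 7.50 to 113, for counting error only; adjusted p = 0.0302). RSEM assigned these reads to different transcripts: the mean transcript length was 3438 nt in each H2O2 library, and 1909.5, 381 and 552.91 nt in control libraries, the first of which held no read. Per length the contrast was therefore smaller, with 0.10, 0.20 and 0.26 TPM in H2O2 libraries, against 0.00, 0.16 and 0.17 TPM in control libraries, and limma on log2(TPM + 0.1) did not call it (log2 difference 0.54, adjusted p = 0.70). The next gene on its strand, alpha-Est2, 0.531 kb away, was called as well, with 0.530 ± 0.203 CPM in H2O2 libraries and 0.0811 ± 0.0470 CPM in control libraries (log2 fold change 2.66, adjusted p = 0.0476). alpha-Est3 had 0.369 and 0.395 CPM in H2O2 and control libraries and was not called.

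**Figure D2:**
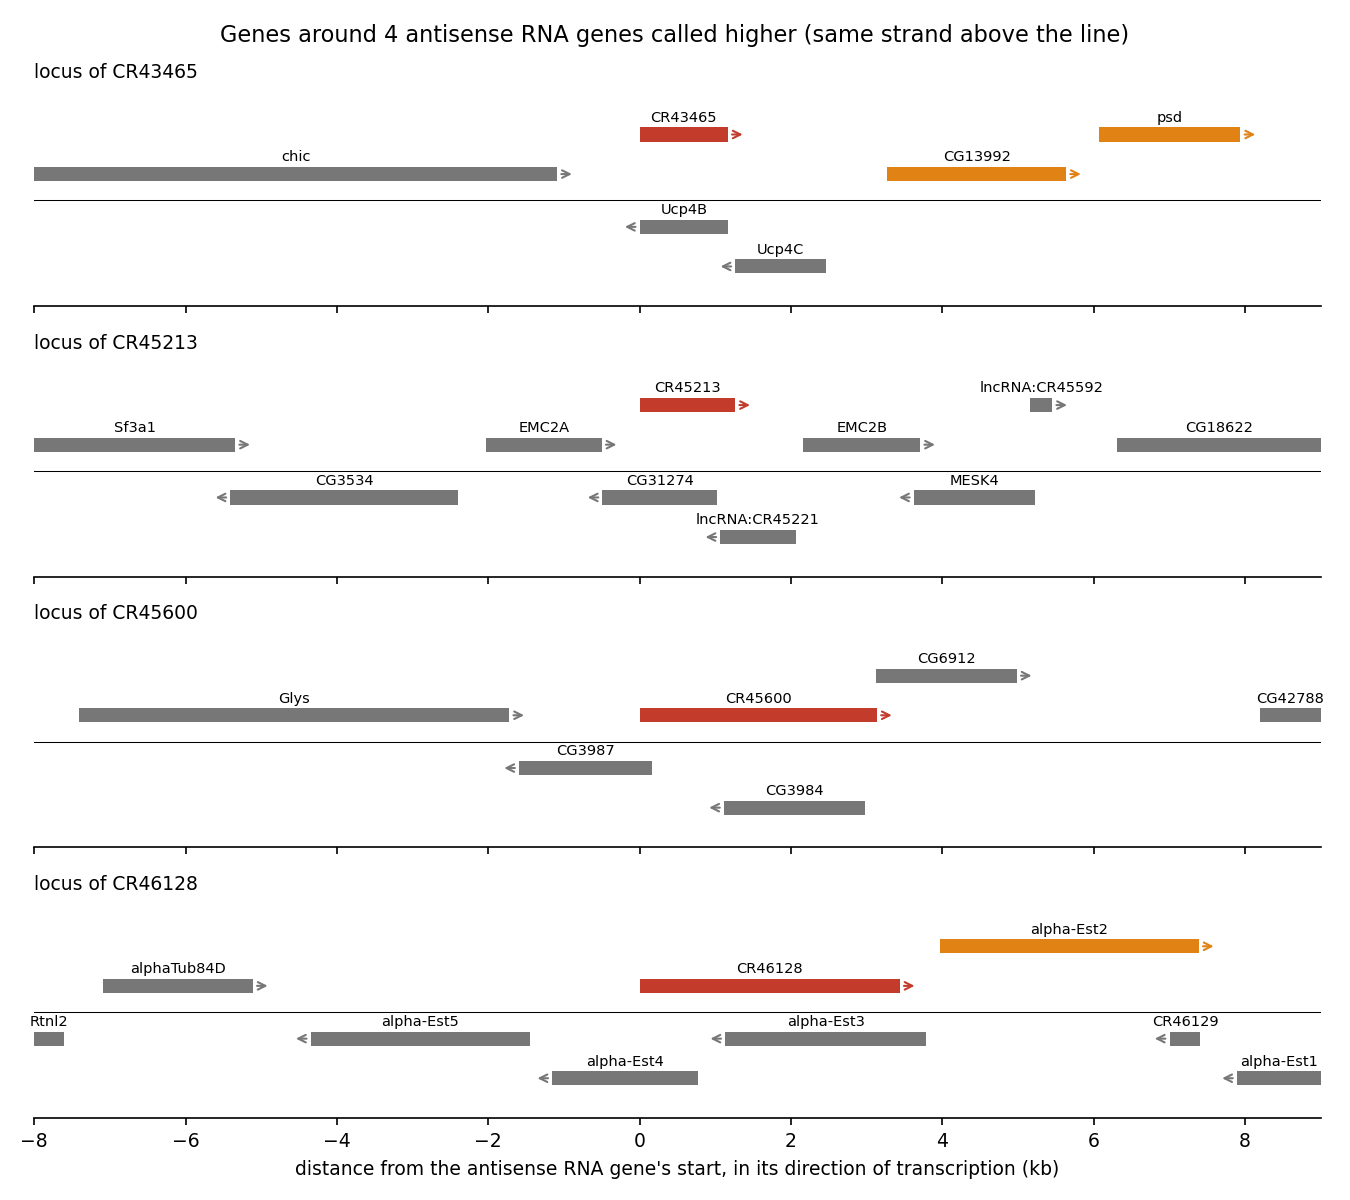
Genes within 8 kb before and 9 kb after the start of 4 antisense RNA genes called higher (red), drawn to scale as distance in kb along the direction of transcription, with same-strand genes above the line, opposite-strand genes below it and arrows for direction. Orange marks neighbours also called higher, which are CG13992 and psd after CR43465 and alpha-Est2 after CR46128, and no gene drawn before a member was called.

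Each of the other 4 called members overlapped coding sequence of a gene that was not called. CR45053 (FBgn0266413, chromosome 3R, 9632035 to 9633076, minus strand) lies inside SpdS, which encodes spermidine synthase. It had 11, 19 and 22 counts in H2O2 libraries, against 1, 2 and 2 in control libraries (log2 fold change 3.20, adjusted p = 0.0188). SpdS had 69.6 ± 25.5 CPM in H2O2 libraries and 70.2 ± 17.2 CPM in control libraries, and per length CR45053 was 0.349% of it. CR45835 (FBgn0267485, chromosome 3L, 7361639 to 7363598, minus strand) lies inside Sec63, which encodes a protein of the endoplasmic reticulum translocation machinery.

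CR45835 had 27, 30 and 33 counts in H2O2 libraries, against 6, 10 and 8 in control libraries (log2 fold change 1.82, adjusted p = 0.0291). Sec63 had 176 ± 30.2 CPM in H2O2 libraries and 202 ± 29.2 CPM in control libraries, and CR45835 was 0.397% of it per length. These 2 were the called members under 1% of their partner, and neither partner was called.

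CR45190 (FBgn0266700, chromosome 3R, 31588279 to 31590411, minus strand) spans CG1635 and had 13, 15 and 11 counts in H2O2 libraries, against 1, 2 and 3 in control libraries (log2 fold change 2.55, adjusted p = 0.0337). CR46066 (FBgn0267735, chromosome 2L, 21665849 to 21666851, plus strand) lies inside CG2225 and had 14, 26 and 16 counts in H2O2 libraries, against 4, 2 and 4 in control libraries (log2 fold change 2.36, adjusted p = 0.0349). The groups were apart in both genes, but both passed the low-count filter in every H2O2 library and in no control library, so the separation adds no support. The control means of 0.0542 and 0.0903 CPM rested on 6 and 10 counts.

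The filter on low counts set which members were tested and so the share called, while all 9 were also called without it. It keeps a gene whose level passes 0.267 CPM in at least 3 libraries, and 28 tested members passed it in the 3 H2O2 libraries and not in all 3 control libraries, against 5 the other way round. Of the 9 called members, 8 were among those 28, so a higher level after H2O2 was what brought them into the test. Of the 103 members above 0.267 CPM in all 6 libraries, edgeR called 1 higher (CR43465) and 0 lower, with 5 higher and 3 lower at an unadjusted p under 0.05, and DESeq2 called 2 higher and 2 lower. Their median log2 fold change was 0.13. Among tested members under 1 CPM in control libraries, 8 of 81 were called higher (9.88%), while 16.1% of all genes tested at that level were. A gene low in control libraries passes the filter more easily if it is higher after H2O2. Choosing by control level therefore favours higher calls in both sets, here and wherever this level is used below.

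Most tested members had a positive log2 fold change. Of the 145 tested, 100 had a positive and 45 a negative log2 fold change, with a median of 0.20, where 54.8% of all genes tested were positive with a median of 0.02. The 100 include members that passed the filter through the H2O2 libraries alone, and of the 103 above the filter's level in all 6 libraries 64 were positive. At a like level, under 1 CPM in control libraries, 76.5% of tested members and 77.1% of all genes tested were positive, with medians of 0.33 and 0.51. Choosing genes by a low control level favours positive values in both sets. An unadjusted p under 0.05 was seen for 23 of the 145 members, and for 14.0% of all genes tested. Groups did not overlap for 29 members higher after H2O2 (20.0%) and 6 lower (4.14%), where the shares over all genes tested were 9.98% and 10.4%. With a trend in transcript length removed from each library, the median of the members was 0.11 and 93 were positive.

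Summed over all 261 members, the level was 352, 462 and 412 CPM in H2O2 libraries 1 to 3, against 338, 424 and 366 CPM in control libraries 1 to 3. Each H2O2 library exceeded the control library of the same number, while the groups as a whole overlapped (409 ± 55.1 CPM in H2O2 libraries and 376 ± 43.7 CPM in control libraries, SD, n = 3 each). More members were detected after H2O2, with 252, 260 and 259 above 0 in H2O2 libraries, against 245, 238 and 237 in control libraries. The same held for all genes, of which 11587, 12061 and 11807 were above 0 in H2O2 libraries, against 11154, 11304 and 11200 in control libraries. How much of the members' shift this accounts for was not tested.

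Without the low-count filter all 261 members could be tested, and edgeR called 11 higher (4.21%) and 0 lower (7 lower at an unadjusted p under 0.05), beside 2.62% and 0.539% of the 10763 genes with a sum of at least 10. Annotated long noncoding RNA genes chosen by the same sum gave 4 higher and 4 lower of 420, 0.952% in either direction. The median log2 fold change was 0.30 for members, against 0.05 for long noncoding RNA genes and 0.03 for all genes. Among genes under 1 CPM in control libraries these medians were 0.47 for members, 0.11 for long noncoding RNA genes and 0.55 for all genes, and the positive shares were 73.6% of members, 55.9% of long noncoding RNA genes and 72.7% of all genes. At that level, 10 of 197 members (5.08%), 4 of 295 long noncoding RNA genes (1.36%) and 246 of 3041 genes of all kinds (8.09%) were called higher. The share of called members was thus above that of long noncoding RNA genes and below that of all genes at this level, and the difference itself was not tested.

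By edgeR without the replicate block, partners were called at about the share of all genes tested. Of 225 partners tested, 5 were called higher and 2 lower (3.11%, where 3.14% of all genes tested were called). Of the 8 tested partners of called members, edgeR called 0, 1 was lower at an unadjusted p under 0.05, and DESeq2 called that 1, CG3984. With the replicate block 20 partners were called higher and 39 lower, where 8.99% and 12.8% of all genes tested were. Over the 128 pairs with both genes tested, the log2 fold changes had the same sign in 71. Pearson's r was -0.11 and Spearman's rho -0.02, a description across genes measured in the same 6 libraries.

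**Figure D3:**
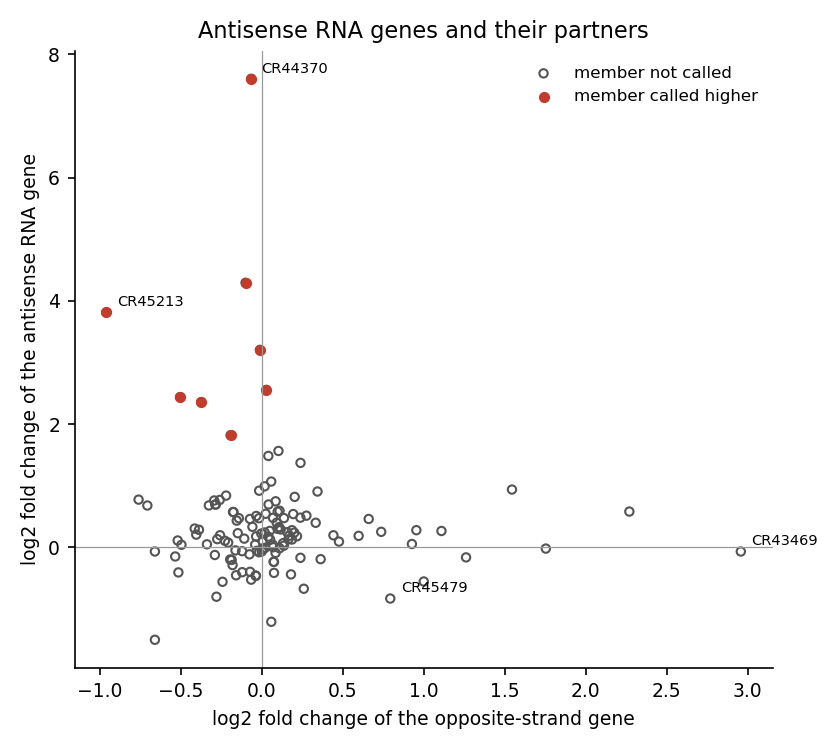
Log2 fold change (H2O2 over control) of the antisense RNA gene on the vertical axis against that of its opposite-strand partner on the horizontal axis, 1 point for each of the 128 pairs with both genes tested, with called members filled in red. The 8 red points lie between -0.96 and 0.03 on the partner axis, and the partner furthest to the right, that of CR43469 at 2.96, sits beside a member near 0.

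CR45479 (FBgn0267035, chromosome X, 2173480 to 2175855, plus strand), which covers the 5′ end of the cytochrome P450 gene Cyp4d14, had values opposite in direction to those of its partner. It had 144, 139 and 162 counts in H2O2 libraries, against 240, 272 and 243 in control libraries, and the groups did not overlap. The level was 3.81 ± 0.431 CPM in H2O2 libraries and 6.79 ± 0.374 CPM in control libraries (log2 fold change -0.83, adjusted p = 0.0545; 0.00146 with the replicate block). Cyp4d14 was called higher, with 6.50 ± 0.0279 CPM in H2O2 libraries and 3.75 ± 0.116 CPM in control libraries (log2 fold change 0.79, adjusted p = 0.0464). The pair was picked out after its values were seen.

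Other partners called by edgeR stood beside members that this fit did not call or test. Balat rose to 0.924 CPM in H2O2 libraries, against 0.116 CPM in control libraries, while CR43469 over it had 4.70 ± 0.316 CPM in H2O2 libraries and 4.93 ± 0.369 CPM in control libraries. Vps13, a lipid transfer protein gene, fell to 315 CPM in H2O2 libraries, against 534 CPM in control libraries, while CR45130 inside it had a log2 fold change of 0.77 (adjusted p = 0.491; 0.0325 with the replicate block). CG9389 was called higher (2.27) beside CR45162 (0.58, not called). The partners Or46a, an odorant receptor gene (3.45), Galphaf, a G protein alpha subunit gene (2.21), and Arglu1 (-0.69) were called beside CR43467, CR46033 and CR45007, whose counts were too low for the test. CR43467, like Or46a, was called higher in the fit without the low-count filter, described below.

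All 4 arrangements of member and partner were represented among the called members. Of 114 members inside their partner, 52 were tested, 4 were called higher and the median log2 fold change was 0.26. The 75 members over the partner's 5′ end had 44 tested, 1 called and a median of 0.24. The 38 over the 3′ end had 28 tested, 1 called and a median of 0.13, and the 33 that span the whole partner had 21 tested, 3 called and a median of 0.19. No test of these differences was made.

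Of the 9 called members, 8 lay shortly downstream of an expressed gene on their own strand. An expressed upstream neighbour was counted where a same-strand gene with a mean of at least 10 CPM ended within 5 kb of the member's start, or overlapped it, which held for 131 of the 261 members. Of the 79 tested members with such a neighbour, 8 were called higher, 62 had a positive log2 fold change and the median was 0.33. Of these 8, 7 had passed the low-count filter in all 3 H2O2 libraries and not in all 3 control libraries, as had CR46128 below. Of the 66 tested without one, 1 was called higher (CR46128, whose nearest expressed neighbour alphaTub84D ends 5.11 kb upstream), 38 were positive and the median was 0.09. The same split over all genes tested gave 156 called higher of 4207 with a neighbour (3.71%) and 74 of 4725 without (1.57%), with medians of 0.05 and 0.01. Under 1 CPM in control libraries, 7 of 48 tested members with a neighbour (14.6%) and 1 of 33 without (3.03%) were called higher, where 21.7% and 10.5% of all genes tested at that level were. Of the 103 members above the filter's level in all 6 libraries, the 55 with a neighbour had 1 called, 39 positive and a median of 0.23, and the 48 without had 0 called, 25 positive and a median of 0.04. The difference between members with and without a neighbour was not tested.

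Of 128 such neighbour genes edgeR called 0 higher (1 at an unadjusted p under 0.05) and 2 lower, DESeq2 called 0 higher and 5 lower, and the fit with the replicate block called 3 higher and 15 lower. Of all genes tested, edgeR called 2.57% higher and 0.570% lower, DESeq2 4.02% and 3.86%, and the blocked fit 8.99% and 12.8%. The 2 called lower by edgeR were Not1, the scaffold gene of the CCR4-NOT deadenylase complex, with 1002 CPM in H2O2 libraries and 1536 CPM in control libraries, and CG8677, with 180 CPM in H2O2 libraries and 278 CPM in control libraries. Of the neighbours of called members, edgeR and DESeq2 called 0, and 1 was lower at an unadjusted p under 0.05, while 2 were lower with the replicate block (Scm and Cul2) and 0 with the block and length trend together. Among them were RpL6, a ribosomal protein gene 4.38 kb upstream of CR45190 (3020 ± 217 CPM in H2O2 libraries and 2700 ± 219 CPM in control libraries), and Cul2, a cullin gene 2.15 kb upstream of CR46066 (495 ± 87.3 CPM in H2O2 libraries and 636 ± 106 CPM in control libraries; adjusted p = 0.468, and 0.00660 with the block). The Polycomb group gene Scm, 0.283 kb upstream of CR45053, had 85.6 ± 7.65 CPM in H2O2 libraries and 109 ± 10.2 CPM in control libraries (adjusted p = 0.232, and 0.00969 with the block).

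**Figure D4:**
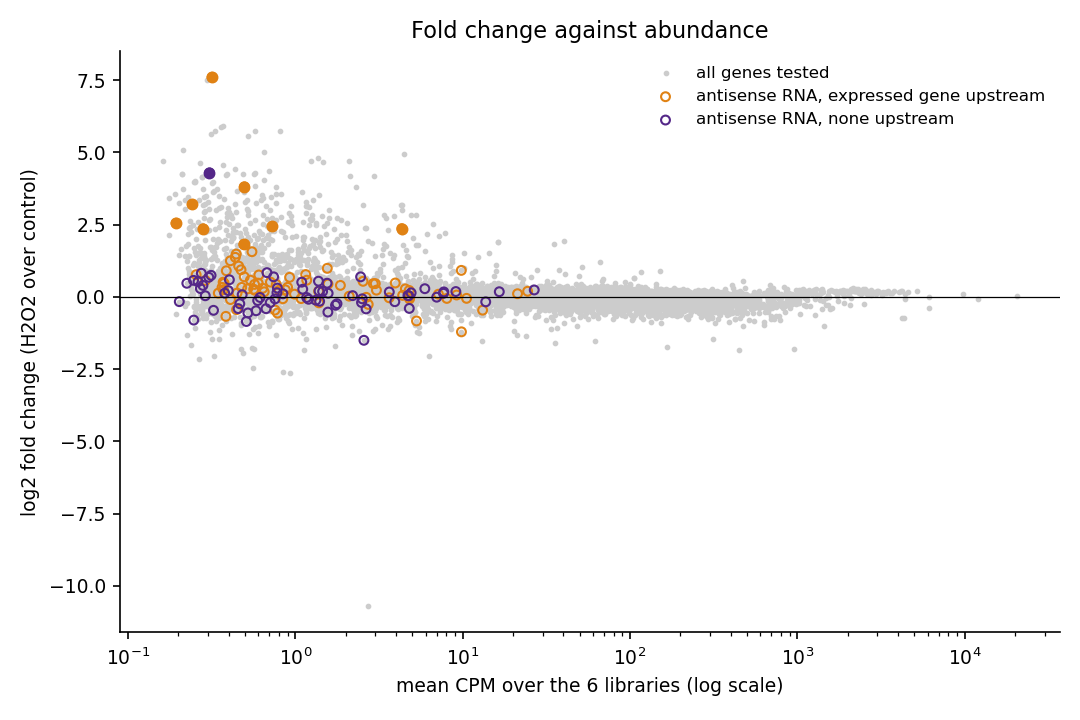
Log2 fold change (H2O2 over control) of all 8955 genes tested (grey) against mean level in CPM over the 6 libraries on a logarithmic axis, with the 145 tested antisense RNA genes circled in orange where an expressed same-strand gene lies within 5 kb upstream and in purple where none does, filled where called. Of the 9 filled points 8 are orange, 8 lie below 1 CPM, and the 7 members above 10 CPM lie between -0.46 and 0.24.

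Without the block, edgeR called 0 of the 8 most abundant antisense RNA genes (CR46029 and CR46194 were lower at an unadjusted p under 0.05), while the block gave CR43723 higher and CR46029 lower and DESeq2 gave CR46194 lower. When a length correction was added to the blocked fit, CR44690 and CR45281 were called higher instead. The 8 with the highest mean together held 34.8% of the summed CPM of all members. CR43723, over the 5′ end of Coop, a Wnt pathway corepressor gene, led with 29.0 ± 1.91 CPM in H2O2 libraries and 24.5 ± 2.90 CPM in control libraries (log2 fold change 0.24; adjusted p = 0.484, and 0.0404 with the replicate block). CR44690, which spans the cytochrome P450 gene Cyp4d2, had 26.1 ± 1.75 CPM in H2O2 libraries and 22.8 ± 0.753 CPM in control libraries (log2 fold change 0.20, adjusted p = 0.509). The length-corrected blocked fit gave it a log2 fold change of 0.45 (adjusted p = 0.00714). Both CR43723 and CR44690 exceeded their partners per length, at 133% and 176% of the partner's TPM.

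CR45281, which spans the alkaline phosphatase gene Alp6 and starts 0.956 kb after the end of Not1, had 22.1 ± 5.59 CPM in H2O2 libraries and 20.5 ± 8.06 CPM in control libraries. Its log2 fold change was 0.11 (adjusted p = 0.949), and 0.46 by the length-corrected blocked fit (adjusted p = 0.0116). CR42254, over the 5′ end of the insulator protein gene BEAF-32, had 17.6 ± 1.67 CPM in H2O2 libraries and 15.5 ± 2.33 CPM in control libraries. CR43957, over the 5′ end of ci, the transcription factor gene of the Hedgehog pathway, had 12.9 ± 3.47 CPM in H2O2 libraries and 14.5 ± 1.72 CPM in control libraries. In each of these 3 the groups overlapped.

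CR46029 (FBgn0267693, chromosome 3R, 16473229 to 16480850, minus strand), over the 5′ end of the guanylyl cyclase gene Gyc89Db, had 9.0, 12.0 and 12.2 CPM in H2O2 libraries, against 12.5, 15.9 and 17.4 CPM in control libraries. Its log2 fold change of -0.46 was not called (adjusted p = 0.32; 0.0033 with the replicate block), and it was -0.05 with both the block and a length correction. Its exonic length is 7622 nt. CR43944, inside the pantothenate kinase gene fbl, had 10.4 ± 2.63 CPM in H2O2 libraries and 10.7 ± 3.53 CPM in control libraries, with groups that overlapped.

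CR46194 (FBgn0267913, chromosome 2R, 12169558 to 12171706, minus strand), over the 3′ end of the spliceosomal gene SmD3, stood apart from the other abundant members. It had 3.26, 7.47 and 7.07 CPM in H2O2 libraries, against 15.9, 16.6 and 8.71 CPM in control libraries. The groups did not overlap, and the log2 fold change was -1.21 (SE 0.37, adjusted p = 0.165, and 0.242 with the replicate block, while DESeq2 gave 0.0222). Its gene overlaps the antizyme gene Oda on the same strand, and RSEM's posterior SD of up to 6.83 counts shows that some reads were divided between genes.

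**Figure D5:**
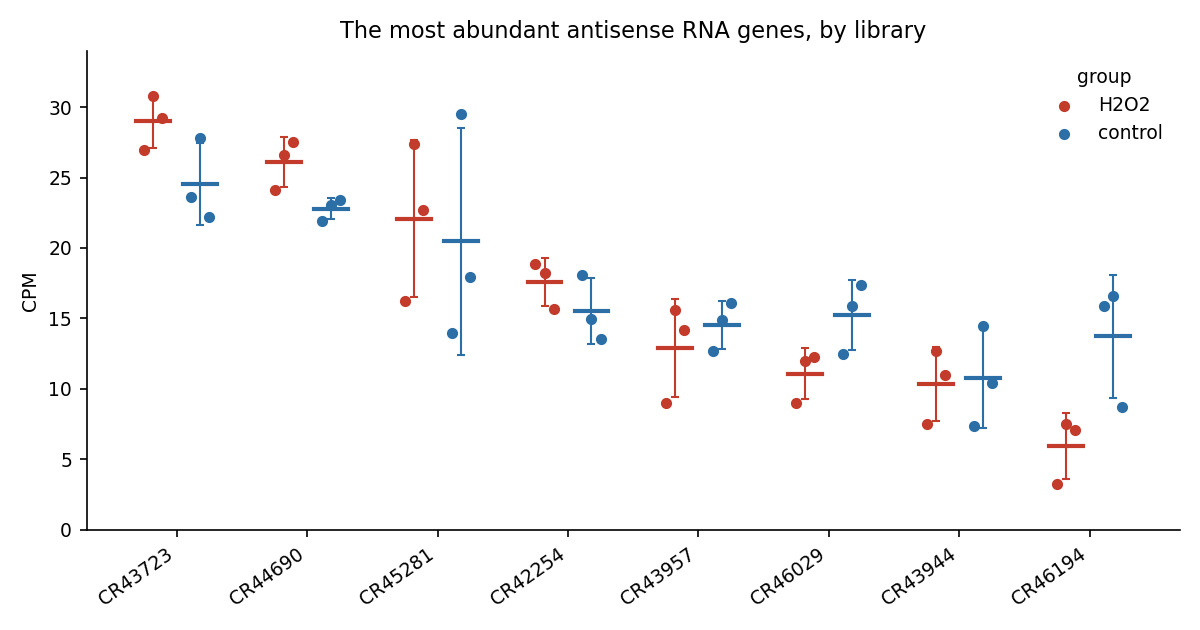
Level of the 8 most abundant antisense RNA genes in CPM by library (points), with the group mean (bar) and SD (whisker, n = 3), H2O2 to the left of control, on a linear axis from 0. CR46029 and CR46194 lie lower and CR44690 higher in all 3 H2O2 libraries than in any control library, and the groups overlap in the other 5.

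Among tested members that were not called by edgeR, the largest fitted fold changes were in CR45831, CR44029 and CR46109. CR45831, inside Ppat-Dpck, a gene of coenzyme A synthesis, had 24, 48 and 26 counts in H2O2 libraries, against 12, 14 and 5 in control libraries (log2 fold change 1.56, adjusted p = 0.126). CR46109, over the 5′ end of IntS11, the endonuclease gene of the Integrator complex, had 14, 33 and 31 counts in H2O2 libraries, against 8, 12 and 6 in control libraries (log2 fold change 1.48, adjusted p = 0.127). CR44029, inside unc-13, a synaptic vesicle priming gene, had 10, 47 and 103 counts in H2O2 libraries, against 60, 170 and 192 in control libraries (log2 fold change -1.50, adjusted p = 0.453; 0.00158 with the replicate block). In CR44029 the groups overlapped, while each H2O2 library was lower than the control library of its number.

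With the replicate number as a block, 19 members were called higher and 3 lower (13.1% and 2.07% of those tested, where 8.99% and 12.8% of all genes tested were), including all 9 called without it. The 3 lower were CR44029, CR45479 and CR46029. Among those added as higher, CR44179, over CG5112, had 12.8 ± 2.28 CPM in H2O2 libraries and 6.79 ± 2.14 CPM in control libraries (log2 fold change 0.94 with the block, adjusted p = 4.48e-04). CR45778, which spans the dUTPase gene, had 25, 27 and 22 counts in H2O2 libraries, against 11, 8 and 8 in control libraries (log2 fold change 1.38, adjusted p = 0.0109). The rest were CR43723, CR44429, CR45130, CR45815, CR45831, CR46109, CR46135 and CR46140, with log2 fold changes between 0.24 and 1.57 in that fit. Of the 19, 16 had an expressed upstream neighbour. With the block and the length trend together, 14 were called higher and 2 lower, where 6.13% and 1.52% of all genes tested were. Of the genes listed as the rest, only CR45831 was still called in that fit, with adjusted p between 0.0648 and 0.380 for the others. CR44179 and CR45778 were still called, and CR46029 was no longer called lower. CR44690 and CR45281 were called higher there and not with the block alone.

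The 116 members too low for the test had sums between 10 and 64 counts, with a median of 21.5. Their counts added up to 1773 in H2O2 libraries and 1132 in control libraries, and 83 had the larger sum in H2O2 libraries and 27 in control libraries. A rise was also usual among low genes counted as a single set, but less common among low long noncoding RNA genes. In the fit without the filter, 72.7% of all genes under 1 CPM in control libraries had a positive log2 fold change. For long noncoding RNA genes at that level the share was 55.9%. Without the filter, 2 of the 116 members were called higher, where 8.09% of all genes under 1 CPM in control libraries were. The 8.09% also covers genes that passed the filter, so the 2 sets are not alike. CR43467, which spans the odorant receptor gene Or46a, had 9, 17 and 11 counts in H2O2 libraries, against 1, 2 and 3 in control libraries, and CR45968, over the 3′ end of CG11109, had 11, 10 and 10 counts in H2O2 libraries, against 0, 1 and 0 in control libraries. Besides CR44370, the members CR44266, CR44134 and CR45343 were at 0 in all control libraries, with 14, 12 and 11 counts in all H2O2 libraries together. No member was at 0 in all H2O2 libraries, and more genes of all kinds were also above 0 in H2O2 libraries than in control libraries.

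Genes that process small RNA or double-stranded RNA, or degrade nuclear noncoding RNA, were called by some fits. A list of 9 genes for small RNA and double-stranded RNA included Dcr-1 and AGO1, which act mainly in the microRNA pathway. Of these 9, 0 were called by edgeR or with the block and length trend together, and 3 were lower at an unadjusted p under 0.05. DESeq2 called 2 lower, and 4 were lower with the block alone (Dcr-2, Adar, Dcr-1 and AGO1). Of all genes tested, 3.86% were lower by DESeq2 and 12.8% with the block. The most abundant were blanks, a double-stranded RNA binding protein gene, with 562 ± 150 CPM in H2O2 libraries and 549 ± 193 CPM in control libraries, and AGO2, the small interfering RNA Argonaute, with 519 ± 44.8 CPM in H2O2 libraries and 592 ± 104 CPM in control libraries. Of 13 genes of the nuclear exosome and its cofactors, 0 were called by edgeR or DESeq2, 1 was lower at an unadjusted p under 0.05, and 3 were lower with the block alone (Rrp6, Mtr4 and Zcchc7). Zcchc7 had 213 ± 22.8 CPM in H2O2 libraries and 269 ± 25.1 CPM in control libraries (log2 fold change -0.34, adjusted p = 0.288), and Ars2 had 196 ± 47.4 CPM in H2O2 libraries and 224 ± 52.3 CPM in control libraries.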

How the data were processed

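The deposited files hold 1 row per gene and library. The authors used STAR 2.4.0j, RSEM 1.2.21 and build dm6, per the submitters' processing notes. Per the file headers, the authors' tables give an expected count, a TPM value, a posterior mean count with its SD, and gene lengths. Symbols matched 16418 of 16451 genes, and positions came from the Ensembl 115 annotation (BDGP6.54, also called dm6).

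Expected counts were rounded, filtered by filterByExpr and scaled by TMM, and H2O2 was compared with control over all genes in edgeR 4.0.16 (R 4.3.3) by a two-sided quasi-likelihood F test, group as the only term, with Benjamini-Hochberg adjustment. The SE of a log2 fold change is its size over the square root of F. Intervals and floors cover counting error only. Simulated counts were run only through edgeR with and without the block, DESeq2, and limma on log2 CPM, and not through the other fits. Deviations from group means correlated at 0.717, 0.518 and 0.601 for same-numbered libraries, so the numbers were read as pairing them, from the data and not from the labels.

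The members, the machinery and marker lists and the rule for named genes (up to 10 called higher by smallest p, up to 5 called lower, the 8 most abundant, the 3 uncalled with the largest change, CR44370, and their partners and neighbours) were chosen with earlier results of these data known. Any other member named was picked after its values were seen. Alternatives were other size factors, DESeq2 1.42.0, other filters, the replicate block, a length trend removed (spline with 4 df), limma 3.58.1 on log2(TPM + 1) and log2(TPM + 0.1), each library left out and, chosen after seeing the data, posterior mean counts. The list gene Zcchc8 and the marker nos had no match by symbol.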

Additional observations from a re-analysis of the deposited data

How the results depend on the processing

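Leaving out each library in turn, the number of members called higher ranged from 0 (without H2O2 replicate 2, control replicate 2 or control replicate 3) to 6, against 9 with all 6 libraries, and the median log2 fold change of tested members from 0.13 to 0.28, against 0.20. All genes called ranged from 0 to 154, against 281, partners called higher from 0 to 2 and lower from 0 to 1, against 5 and 2. Both groups carry replicate numbers 1 to 3, which were read as pairing the libraries, from the data and not from the labels. With the replicate block, calls numbered 1947 genes, 19 members higher, 3 members lower, 20 partners higher, 39 partners lower and 7 machinery genes, and all 9 members called without it were called. With the block plus a length correction they were 685 genes, 14 members higher, 2 members lower, 13 partners higher and 7 partners lower, and the median of the members was 0.13. Removing the length trend alone gave a median of 0.11, 3 partners higher and 1 lower. DESeq2 called 706 genes, 2 members lower, 8 partners higher, 15 partners lower and 2 machinery genes. On log2(TPM + 1) limma called 1 member lower and 1 partner lower, with a median of 0.057, and on log2(TPM + 0.1) 1 partner lower, with a median of 0.091. The pseudocount understates changes of low genes. Without the low-count filter the median was 0.30. The called members CR44370, CR46128 and CR45190 were not called by limma on log2(TPM + 1), and CR46128 not on log2(TPM + 0.1).

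A neighbour within 2 kb was counted for 86 members and one of at least 50 CPM for 81, against 131. Among the called members these counts were 5 and 7, against 8. A sum of at least 50 would leave 150 members. Of the 54 genes whose fold changes were recomputed, 33 kept their sign in every setting run. The other 21, called in 0 of the settings that turned their sign, are given as log2 fold changes. With the length trend removed these were EMC2A -0.053, Fs 0.075, chic -0.0043, CG1635 -0.030, Coop -0.043, Gyc89Db 0.047, SmD3 -0.085 and Txl -0.043, and with the block added EMC2A -0.042, Fs 0.074, chic -0.0043, CG1635 -0.029, Coop -0.048, Gyc89Db 0.050, SmD3 -0.082 and Txl -0.040. On log2(TPM + 0.1) they were EMC2A -0.049, CG8079 -0.11, Sh3beta -0.031, CG1635 -0.065, Coop -0.081, SmD3 -0.041, Oda -0.0009, Txl -0.038 and IntS11 -0.060, and on log2(TPM + 1) EMC2A -0.049, CG8079 -0.10, Sh3beta -0.031, CG1635 -0.061, Coop -0.078, SmD3 -0.040, Oda -0.0009, Txl -0.038 and IntS11 -0.060. CG8079 also gave -0.0024 by DESeq2, -0.0027 with other size factors, -0.014 without the filter and -0.0029 with the replicate block. With 1 library left out, CR45281 ranged from -0.11 to 0.47, CR43957 from -0.34 to 0.030, CR43944 from -0.26 to 0.22, EMC2A from -0.063 to 0.22, Fs from -0.33 to 0.083, CG8079 from -0.070 to 0.074, SpdS from -0.31 to 0.22, Sh3beta from -0.015 to 0.17, alpha-Est3 from -0.26 to 0.053, CG1635 from -0.031 to 0.067, Coop from -0.10 to 0.13, Nmd3 from -0.19 to 0.10, Gyc89Db from -0.11 to 0.055, Der-2 from -0.15 to 0.089, CG33969 from -0.12 to 0.068, SmD3 from -0.13 to 0.27, Oda from -0.038 to 0.26, Txl from -0.22 to 0.34, IntS11 from -0.11 to 0.13 and ATPsyngamma from -0.18 to 0.39. The cause of these shifts was not tested.

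Depth limits the members: 116 of 261 had too few reads for the test.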
